A study of Mus musculus with 48 samples.

Results

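Fam53b, Nuak1, Rbm33, Rtel1, Rccd1, Dusp3 and Pepd are 7 of the 24062 genes counted by RNA-seq in mouse medial prefrontal cortex. They were chosen by symbol, because their counts differed between ethanol-drinking and water-drinking mice in whole-tissue homogenate. The question was whether microglia isolated from the same tissue followed. That homogenate difference chose the genes, so it is described here without a test and supports nothing. All 7 passed the filter on low counts in every comparison below, so none is missing from a count.

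All mice were C57BL/6, and no genotype other than the strain was given in the labels. Ethanol mice drank 15% ethanol by choice on alternate days for 60 days, with water on the days between, and were killed as soon as the bottles were removed. Water mice had water for 60 days. In each mouse the minced tissue gave a small sample of total homogenate, while what remained was dissociated, freed of myelin on Percoll and passed over Cd11b microbeads to isolate microglia. A separate cohort received 1.5 mg/kg lipopolysaccharide (LPS, a bacterial cell wall component) or saline into the peritoneum, and its microglia were taken 1 week later. Neutrophils, monocytes and the macrophages of brain borders display CD11b too, so the beads do not select microglia alone. The libraries comprised 10 ethanol and 9 water homogenates, 10 ethanol and 8 water microglial libraries, and 5 LPS and 5 saline microglial libraries. They came from separate mice within a group, and 18 mice gave both preparations.

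Depth ranged from 9720478 to 67544237 counts in genes per library. The 8 microglial markers summed to 488 to 619 CPM (counts-per-million units, relative to all counts in genes of the library) in water homogenates and to 24737 to 33632 CPM in water microglia. The 10 neuronal markers ran the other way, at 7085 CPM or more in every homogenate and at 120.1 CPM or less in every ethanol or water microglial library. No marker of any list was at 0 in any group. In 4 water homogenates (mice 21, 24, 25 and 26) the protocol label was the microglial one, although title and cell type said homogenate. Their microglial markers summed to 537 to 619 CPM, against 488 to 546 CPM in the other water homogenates and 24737 CPM or more in water microglia. The water homogenate range above includes these 4 libraries. Water microglia 19 held 15874 CPM of neutrophil markers against a median of 151 CPM in its group, and water microglia 24 was the shallowest library. The member values of ethanol against water microglia, and the call of Rtel1 between preparations, are given with and without these libraries. The same-mouse relations and the medians of the marker and pathway lists include them throughout.

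The 7 genes share no single pathway. FAM53B is a nuclear protein that, in zebrafish, is needed for beta-catenin to enter the nucleus in Wnt signalling. NUAK1 is a kinase related to AMPK that is switched on by LKB1, and in mouse cortex it supports the branching of axons. RBM33 is an RNA-binding protein that partners the m6A demethylase ALKBH5 in human cells. RTEL1 is a helicase that unwinds telomere loops and other DNA structures. RCCD1 carries RCC1 repeats and partners the hydroxylase KDM8 in human cells. DUSP3 is a small dual-specificity phosphatase that acts on MAP kinases, and PEPD is prolidase, which splits dipeptides that end in proline.

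The genes lie on different chromosomes, apart from the 3 on chromosome 7, and the promoters of the 3 genes that head the group and of Rccd1, the gene with the largest rise, are shown so that their make-up can be compared. Each runs from 250 bases before to 50 bases after a RefSeq transcription start (build GRCm38.p6), 5′ to 3′ on the gene's strand. Capitals mark a GC box (GGGCGG or its reverse complement CCGCCC) or a CCAAT box (CCAAT or ATTGG), both searched on both strands.
Fam53b: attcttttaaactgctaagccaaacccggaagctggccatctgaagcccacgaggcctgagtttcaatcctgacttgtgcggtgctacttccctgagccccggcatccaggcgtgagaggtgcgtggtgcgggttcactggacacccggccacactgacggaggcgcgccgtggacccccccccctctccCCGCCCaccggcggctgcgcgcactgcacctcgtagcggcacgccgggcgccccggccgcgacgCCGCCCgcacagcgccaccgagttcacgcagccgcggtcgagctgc
Nuak1: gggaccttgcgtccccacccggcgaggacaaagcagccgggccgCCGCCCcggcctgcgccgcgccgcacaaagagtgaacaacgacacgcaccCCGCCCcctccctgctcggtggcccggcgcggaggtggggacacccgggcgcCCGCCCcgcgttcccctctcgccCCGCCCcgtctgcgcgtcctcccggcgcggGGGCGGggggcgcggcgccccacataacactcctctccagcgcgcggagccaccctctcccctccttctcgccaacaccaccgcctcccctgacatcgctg
Rbm33: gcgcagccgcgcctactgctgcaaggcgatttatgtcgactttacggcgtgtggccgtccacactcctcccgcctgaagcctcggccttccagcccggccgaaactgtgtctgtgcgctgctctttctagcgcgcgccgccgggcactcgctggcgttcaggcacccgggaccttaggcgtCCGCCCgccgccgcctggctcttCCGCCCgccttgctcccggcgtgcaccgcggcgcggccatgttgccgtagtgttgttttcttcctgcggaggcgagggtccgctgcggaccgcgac
Rccd1: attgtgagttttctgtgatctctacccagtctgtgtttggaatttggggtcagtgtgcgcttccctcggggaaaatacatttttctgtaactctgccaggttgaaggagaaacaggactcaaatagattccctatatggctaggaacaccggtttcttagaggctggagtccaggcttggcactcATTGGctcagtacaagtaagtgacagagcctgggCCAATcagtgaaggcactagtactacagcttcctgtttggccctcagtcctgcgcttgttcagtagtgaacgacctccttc
The windows are chr7:132813799-132814098 for Fam53b (minus strand, the first of 3 starts), chr10:84440619-84440918 for Nuak1 (minus strand), chr5:28316939-28317238 for Rbm33 (plus strand) and chr7:80324405-80324704 for Rccd1 (minus strand). The Nuak1 window held 5 GC boxes and 77% G or C, the Fam53b window 2 and 69.3%, and the Rbm33 window 2 and 69.7%. The Rccd1 window held no GC box, 2 CCAAT boxes and 48.7% G or C. Among 32851 RefSeq promoters of this length, 35.7% held a GC box, 37.4% a CCAAT box, and the median content of G or C was 52.7%. Of the other members, Dusp3 had 3 GC boxes and 1 CCAAT box, Pepd 2 GC boxes, and Rtel1 1. A search for the cAMP response element (TGACGTCA, found in 1.79% of promoters) matched none of the windows, and the E-box CACGTG (7.15% of promoters) was in that of Pepd alone. GC boxes and CCAAT boxes were each found in windows of genes that were lower and of genes that were higher with ethanol, and a match is a description, not a bound site.

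In homogenate, 4 of the genes were lower in ethanol than in water mice and 3 were higher. Their levels by library, with the values that chose them, were as follows.

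Fam53b was at 36.8 CPM in the lowest, 45.5 in the median and 55.5 in the highest ethanol homogenate. In water homogenates the lowest, median and highest were 54.3, 69.5 and 90.3 CPM. Ethanol mouse 3 alone reached into the water range, and the log2 difference was -0.61 (SE 0.09), a level 0.656 times that of water mice. Nuak1 was at 79.9, 87.4 and 95.4 CPM in the lowest, median and highest ethanol homogenate and at 91.4, 118.5 and 142.8 CPM in water homogenates. Only water mice 17 and 24 fell among the ethanol values, and the ethanol libraries were close together (87.4 ± 5.27 CPM, SD, n = 10) while the water libraries were spread (117.6 ± 17.3 CPM, SD, n = 9). The log2 difference of Nuak1 was -0.42 (SE 0.08).

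Dusp3, the most abundant of the 7 in homogenate, was at 206, 235 and 258 CPM (lowest, median and highest) with ethanol and at 256, 299 and 338 CPM with water, a log2 difference of -0.33 (SE 0.06). Pepd was at 14.7, 17.1 and 18.4 CPM with ethanol and at 18.1, 20.8 and 23.2 CPM with water, a log2 difference of -0.28 (SE 0.05). For both, every ethanol library lay below the water median and the ranges met only at their edges.

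Rbm33 was at 102.5, 120.1 and 139.6 CPM with ethanol and at 83.3, 95.5 and 105.4 CPM with water, a log2 difference of 0.35 (SE 0.06). Water mouse 24 was the one water library above the lowest ethanol libraries. Rtel1 was at 17.3, 21.6 and 25.7 CPM with ethanol and at 12.6, 15.97 and 17.2 CPM with water (log2 difference 0.49, SE 0.07). Rccd1 was at 10.1, 11.5 and 13.2 CPM with ethanol and at 6.44, 8.33 and 9.99 CPM with water (log2 difference 0.52, SE 0.08). The ranges of Rtel1 and Rccd1 did not overlap between the groups. For Rtel1 the gap was slight, from 17.243 CPM in water mouse 15 to 17.26 CPM in ethanol mouse 14. This contrast chose the genes, and the share of all genes without overlap was not computed.

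These 7 ranked between 1 and 34 by p among the 15215 genes tested with edgeR's quasi-likelihood test, and all 7 were below a Benjamini-Hochberg adjusted p of 0.05, as were 0.808% of all genes (0.611% higher, 0.197% lower), which for these members only restates how they were chosen. At the threshold itself, Unc80 (log2 difference 0.25) and Crkl (-0.22) lay just inside, with adjusted p of 0.0492 and 0.0494 in edgeR, and Nefh (-0.88) and Nfrkb (0.21) just outside, with 0.0510 and 0.0520.

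**Figure D1:**
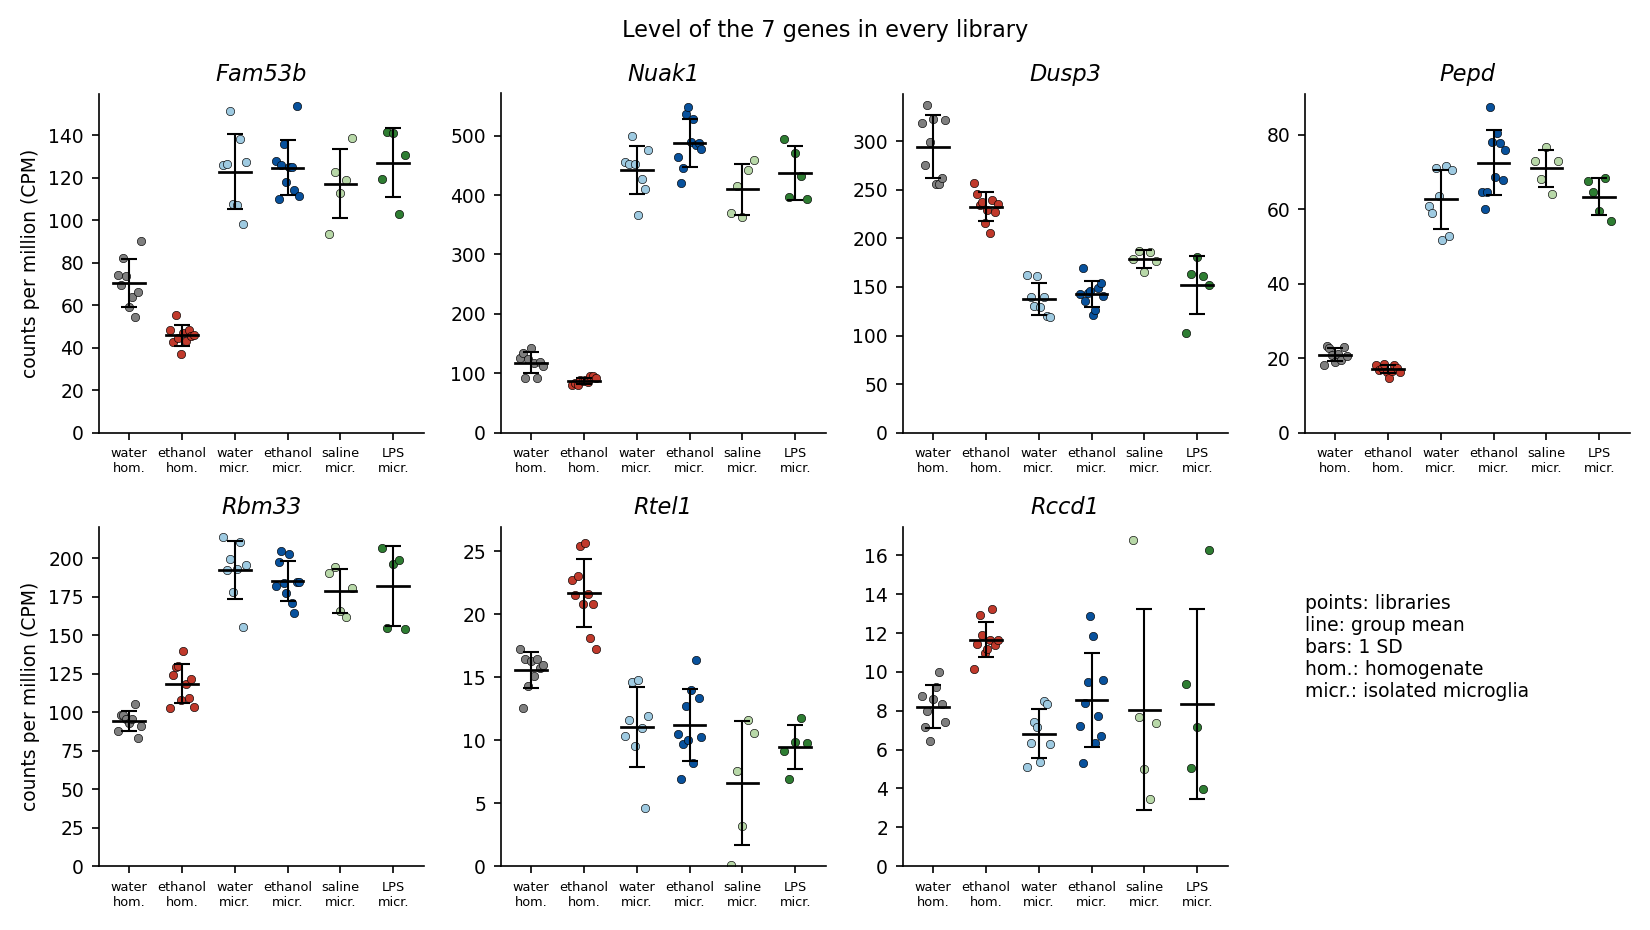
Level in CPM (y axis, linear, starting at 0) of each gene in every library, by group on the x axis. Points are libraries, the line is the group mean and the bars are 1 SD. The homogenate means differ for all 7 genes, by which they were chosen, while ethanol and water microglia overlap throughout, for instance at 110 to 154 CPM against 98.2 to 151 CPM for Fam53b.

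Several properties of the homogenates differed between the drinking groups. The share of uniquely aligned reads that fell outside genes was 27.1 ± 4.20% in ethanol homogenates (SD, n = 10) and 22.5 ± 1.91% in water homogenates (SD, n = 9). The 8 oligodendrocyte markers summed to 1544 to 7773 CPM with ethanol (median 1962) and to 1488 to 12587 CPM with water (median 3046). All 8 had a negative log2 difference (median -0.72), none past the threshold. Of the 8 microglial markers 7 had a positive log2 difference (median 0.13), again none past the threshold. All 8 border macrophage markers had a negative log2 difference (median -0.59, sums of 39.2 to 101.7 CPM with ethanol and 38.03 to 212 CPM with water), and none passed. Median depth was 35.2 M counts in genes with ethanol and 52.7 M with water. The parts of macrophage content and depth in the differences were not tested. A smaller part of one cell type in the tissue and less RNA per cell of that type cannot be told apart in such bulk samples.

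With the outside-gene share as a covariate, the homogenate differences were -0.64 for Fam53b, -0.35 for Nuak1, -0.30 for Dusp3, -0.23 for Pepd, 0.22 for Rbm33, 0.41 for Rtel1 and 0.50 for Rccd1 on the log2 scale. None of the 7, and no gene of the whole table, then had an edgeR adjusted p below 0.05. The libraries with the highest oligodendrocyte sums, ethanol mouse 3 and water mice 17 and 26, were also those with the highest Fam53b in their groups. Without these 3 libraries the Fam53b difference was -0.54 (SE 0.07), and 3 of the 7 genes (Fam53b, Nuak1 and Rtel1) stayed below the threshold, in a fit chosen after the data were seen. The share of all genes below the threshold in that fit is not reported here, so this count is not read as a result about the members. Sheet numbers in the deposited names divide most homogenates between 2 apparent sequencing runs, 1 and 2, with 4 ethanol and 4 water mice each. Ethanol mice 1 and 13 and water mouse 15 fell in a further run, run 3, with the LPS and saline libraries. Runs 1 and 2 are subsets of the libraries that chose the genes, so their values are a description. They were -0.68 and -0.54 for Fam53b, -0.55 and -0.25 for Nuak1, -0.41 and -0.23 for Dusp3, -0.32 and -0.33 for Pepd, 0.34 and 0.36 for Rbm33, 0.60 and 0.42 for Rtel1 and 0.64 and 0.49 for Rccd1, with none past the threshold at that size.

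Within a drinking group the outside-gene share can be set against each gene without the contrast that chose them. Over the 10 ethanol homogenates, Rbm33 rose with the share (Pearson r = 0.779, permutation p = 0.00272, adjusted p = 0.0381 over 14 relations, and Spearman rho = 0.697, permutation p = 0.0312, adjusted p = 0.218). Without the 2 libraries farthest from the median share r was 0.534, so the relation rests in part on them. In the 9 water homogenates r was 0.490 for Rbm33 (exact permutation p = 0.183) and rho 0.583 (exact permutation p = 0.108). Nuak1 had r = -0.783 in water homogenates (exact permutation p = 0.00744, adjusted p = 0.0521, and rho = -0.80, exact permutation p = 0.0138, adjusted p = 0.194), r = -0.539 without the 2 farthest, and r = 0.144 in ethanol homogenates (permutation p = 0.720). Of the 14 relations, that of Rbm33 in ethanol mice was the one below an adjusted p of 0.05 by Pearson's r, and none was by Spearman's rho. The share of all genes related to it in this way was not computed. The homogenate values used here are also those that chose the genes, so the relation is not read as a trait of Rbm33. The part of this share in the homogenate differences was not otherwise tested.

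**Figure D2:**
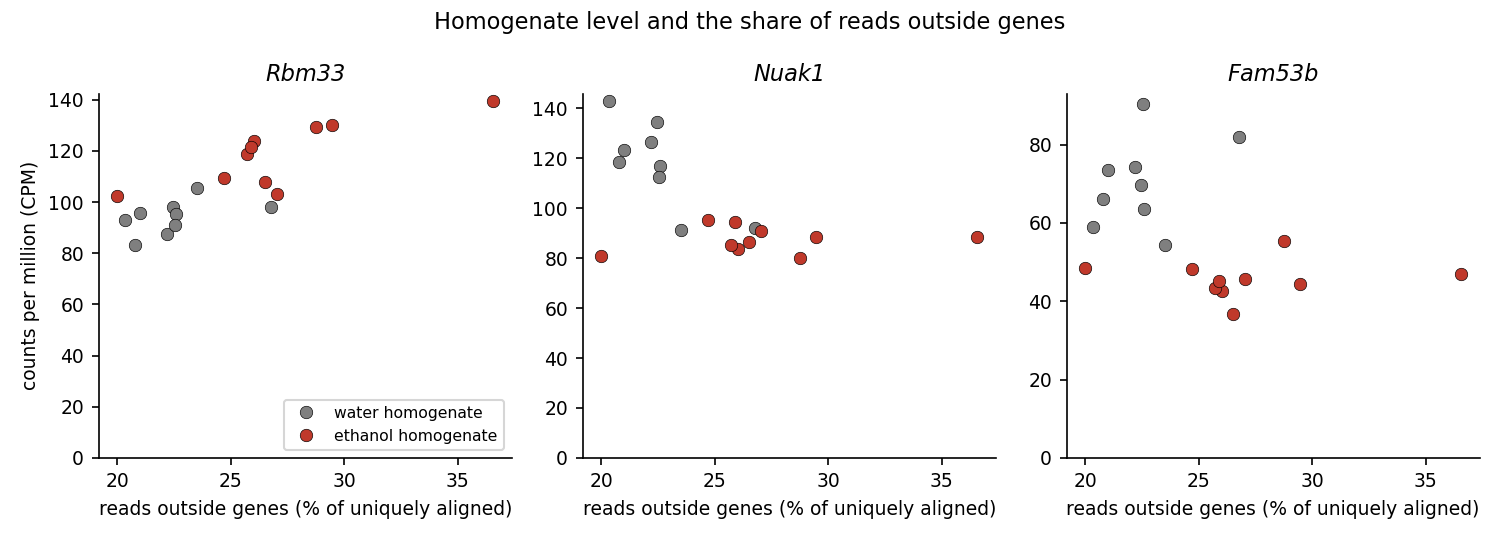
Homogenate level in CPM (y axis, from 0) against the percent of uniquely aligned reads outside genes (x axis) for Rbm33, Nuak1 and Fam53b. Each point is a homogenate of an ethanol or a water mouse. Rbm33 rises with the share among ethanol homogenates (r = 0.779), Nuak1 falls among water homogenates (r = -0.783), and Fam53b shows r of 0.0679 and 0.331 in ethanol and water mice.

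All 7 genes were also expressed in isolated microglia, and none is a gene of homogenate alone. In microglia of water mice, Nuak1, Pepd, Rbm33 and Fam53b were higher than in homogenate of water mice, and Dusp3 and Rtel1 were lower. Nuak1 had the largest of these differences, at 442 ± 41.0 CPM in water microglia (SD, n = 8) against 117.6 ± 17.3 CPM in water homogenate (SD, n = 9), and its log2 fold change was 1.99 (SE 0.09). Pepd was at 62.6 ± 7.99 against 20.9 ± 1.81 CPM, a log2 fold change of 1.66 (SE 0.07). No microglial library of the study overlapped a homogenate for Nuak1, Pepd, Fam53b or Rbm33. The share of all genes that separate in this way was not computed. Since 84.4% of genes passed between these preparations in water mice, the separation is not read as a trait of these genes.

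Rbm33 stood at 192 ± 18.7 CPM in water microglia and 94.1 ± 6.45 CPM in water homogenate, a log2 fold change of 1.10 (SE 0.05). Fam53b stood at 122.7 ± 17.7 against 70.3 ± 11.2 CPM (0.88, SE 0.09). Dusp3 was lower in microglia, at 138 ± 16.8 against 295 ± 32.3 CPM, a log2 fold change of -1.02 (SE 0.08). Rtel1 was at 11.04 ± 3.21 against 15.6 ± 1.41 CPM (-0.43, SE 0.15). Rccd1 was at 6.82 ± 1.26 against 8.21 ± 1.09 CPM (-0.18, SE 0.15, edgeR adjusted p = 0.254) and did not pass the test.

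By edgeR's quasi-likelihood test at an adjusted p of 0.05, 6 of the 7 passed in water mice, 4 higher and 2 lower, when 84.4% of the 15057 genes tested passed, 35.3% higher and 49.1% lower. So passing says little about these members, and the median of all genes was -0.372 on the log2 scale. The call of Rtel1 (edgeR adjusted p = 0.0120) rested on water mice 19 and 24: without them its log2 fold change was -0.21 (edgeR adjusted p = 0.123), and 5 of the 7 passed. Ethanol mice gave the same 6 genes in the same directions, where 84.5% of 14637 genes passed (38.8% higher, 45.6% lower), with log2 fold changes of 2.67 for Nuak1, 2.29 for Pepd, 1.64 for Fam53b, 0.84 for Rbm33, -0.77 for Rtel1 and -0.51 for Dusp3. These values and those of water mice differ partly through the homogenate difference that chose the genes, so the gap between them was not tested. Rccd1 in ethanol mice was at -0.26 (SE 0.14, edgeR adjusted p = 0.0961). It passed, at -0.48 (edgeR adjusted p = 0.00373), when scaled by RLE size factors (a median-of-ratios scaling) in place of TMM (trimmed mean of M values), which moved the median of all genes from -0.206 to -0.434.

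**Figure D3:**
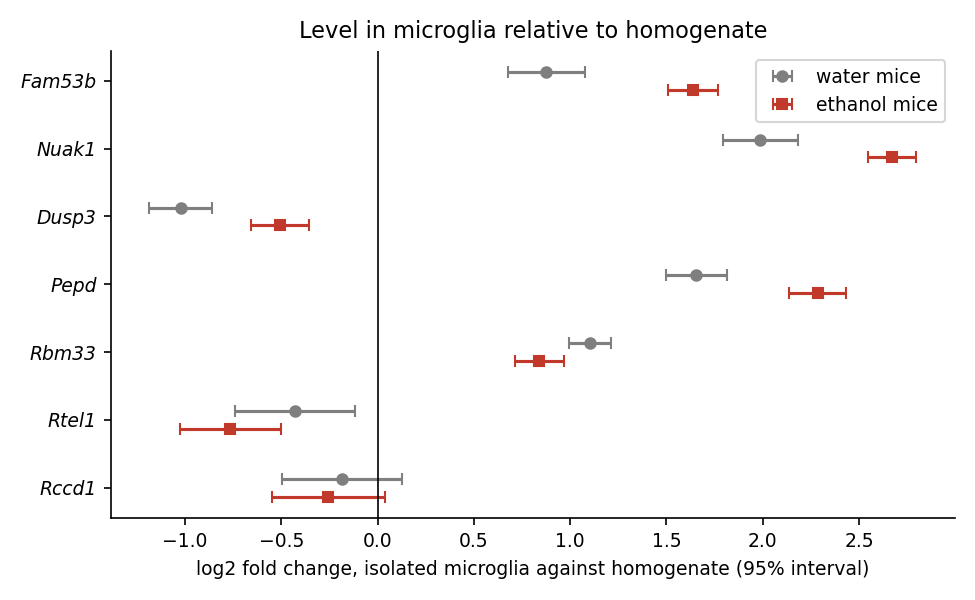
Log2 fold change of isolated microglia against homogenate (x axis) for each gene, in water mice and in ethanol mice. Points are the edgeR estimates and bars are 95% intervals. Nuak1, Pepd, Fam53b and Rbm33 lie above 0 in both (1.99, 1.66, 0.88 and 1.10 in water mice), Dusp3 and Rtel1 lie below 0, and the intervals of Rccd1 include 0.

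Per kilobase of exon, Dusp3 led in water homogenate at 62.9 CPM per kb, ahead of Nuak1 at 20.9, Fam53b at 10.2, Rbm33 at 7.53, Pepd at 6.78, Rtel1 at 2.35 and Rccd1 at 1.04 CPM per kb. In water microglia the order was Nuak1 at 78.7, Dusp3 at 29.4, Pepd at 20.3, Fam53b at 17.8, Rbm33 at 15.4, Rtel1 at 1.67 and Rccd1 at 0.863 CPM per kb. Pepd and Fam53b there differed by less than 1 SD of either. Rtel1 and Rccd1 were thus the scarcest in both preparations, with as few as 45 counts of Rtel1 in water microglia 24.

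In microglia, none of the 7 genes passed the test of ethanol against water. Fam53b was at 110, 125 and 154 CPM (lowest, median and highest) in ethanol microglia and at 98.2, 126 and 151 CPM in water microglia. The groups overlapped over nearly their whole ranges, and the log2 fold change was -0.0059 (SE 0.08, 95% interval -0.16 to 0.15).

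Nuak1 was at 420.0, 486 and 548 CPM in ethanol microglia and at 367, 453 and 499 CPM in water microglia. Of the 10 ethanol libraries 8 were above the water median, opposite to the fall in homogenate, with a log2 fold change of 0.11 (SE 0.06, 95% interval -0.02 to 0.24). Dusp3 was at 121, 143 and 169 CPM with ethanol and at 119, 135 and 162 CPM with water, a log2 fold change of 0.02 (SE 0.07, 95% interval -0.12 to 0.17). Pepd was at 60.0, 72.2 and 87.4 CPM with ethanol and at 51.7, 62.2 and 71.6 CPM with water. The sign for prolidase mRNA was thus opposite to that in homogenate, with a log2 fold change of 0.18 (SE 0.08, 95% interval 0.0089 to 0.35). Its unadjusted p was 0.0401 in edgeR and its adjusted p 0.625, so it did not pass.

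Rbm33 was at 164, 184 and 205 CPM with ethanol and at 155, 194 and 214 CPM with water, a log2 fold change of -0.08 (SE 0.06, 95% interval -0.20 to 0.04). Here 3 of 10 ethanol libraries were above the water median, while in homogenate all 10 were. Rtel1 was at 6.90, 10.4 and 16.4 CPM with ethanol and at 4.63, 11.3 and 14.8 CPM with water, a log2 fold change of -0.0021 (SE 0.19, 95% interval -0.40 to 0.39). Rccd1 was at 5.28, 8.05 and 12.9 CPM with ethanol and at 5.10, 6.76 and 8.49 CPM with water, a log2 fold change of 0.29 (SE 0.21, 95% interval -0.14 to 0.71). The intervals of Rtel1 and Rccd1 were the widest of the 7, and the level of Rccd1 varied between libraries by 28.4% of its mean with ethanol and 18.5% with water.

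None of the 7 passed in microglia by edgeR's quasi-likelihood test (adjusted p from 0.625 to 1.00), when 0.00756% of the 13223 genes tested did, that is 1 gene. By unadjusted p below 0.05, 1011 genes passed (7.65%), Pepd among them. DESeq2 and limma voom also gave 0 of the 7. The difference between the preparations was not tested, since the homogenate contrast chose the genes. The 8 neutrophil markers had a median log2 fold change of -2.61 between ethanol and water microglia, none past the threshold. They summed to 98.4 to 666 CPM in ethanol microglia and to 43.2 to 15874 CPM in water microglia, the top value in mouse 19. In the same comparison all 8 oligodendrocyte markers had a positive value (median 0.65), all 8 border macrophage markers a negative one (median -0.29), and the 6 monocyte markers a median of -1.77, none past the threshold. The part of these cell types in the microglial values was not tested. Without water mice 19 and 24 the microglial values were -0.05 for Fam53b, 0.09 for Nuak1, 0.01 for Dusp3, 0.14 for Pepd, -0.09 for Rbm33, -0.04 for Rtel1 and 0.33 for Rccd1, none past the threshold.

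**Figure D4:**
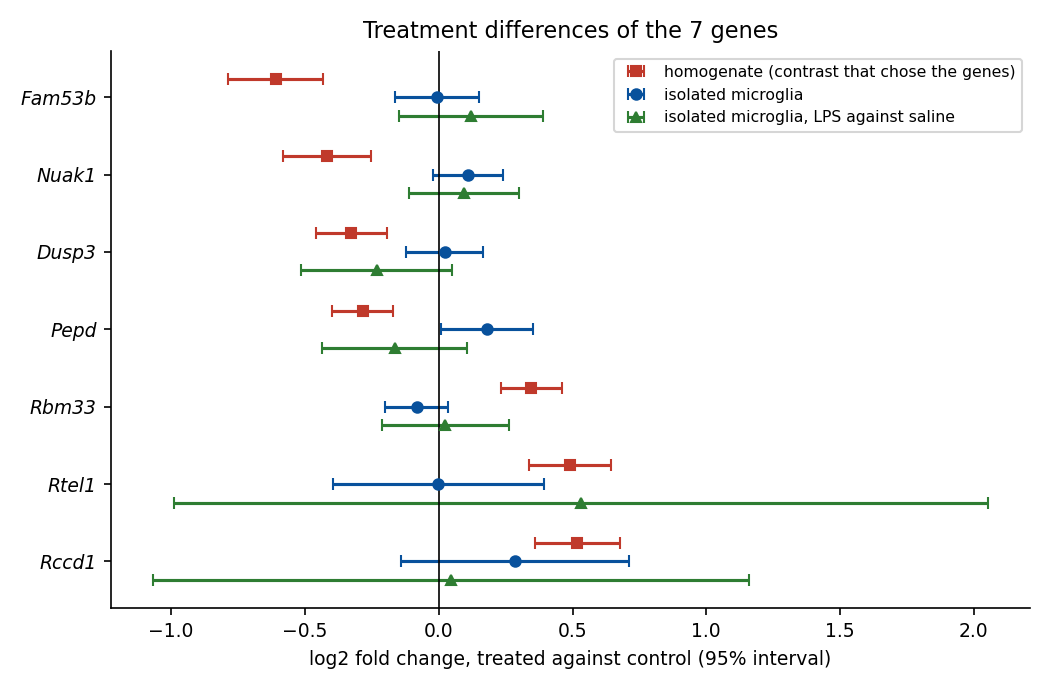
Log2 fold change of treated against control mice (x axis) for each gene, with 95% intervals from edgeR. Squares are ethanol against water in homogenate, the contrast that chose the genes, circles are ethanol against water in isolated microglia, and triangles are LPS against saline in isolated microglia. The microglial intervals include 0 except that of Pepd with ethanol (0.0089 to 0.35), and those of Rtel1 and Rccd1 are the widest.

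Tissue homogenate contains microglia. The 8 microglial markers in homogenate summed to 1.81% of their level in isolated microglia in water mice and to 1.84% in ethanol mice. Scaled by that share, and taking the RNA of microglia in tissue to be as in the isolated cells, microglia accounted for 2.23 of the 70.3 CPM of Fam53b in water homogenate (3.17%). For Nuak1 this was 8.03 of 117.6 CPM (6.82%), for Pepd 1.14 of 20.9 CPM (5.43%), for Rbm33 3.49 of 94.1 CPM (3.71%), and for Dusp3, Rtel1 and Rccd1 0.848%, 1.29% and 1.505%. Beside these contributions, the homogenate differences (ethanol minus water) were -24.6 CPM for Fam53b, -30.2 for Nuak1, -61.8 for Dusp3, -3.92 for Pepd, 24.5 for Rbm33, 6.13 for Rtel1 and 3.44 for Rccd1. This calculation was chosen after the data were seen, and the part of microglia in the homogenate differences was not tested.

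From mouse to mouse, no gene showed a relation between microglia and homogenate that passed the test. Of 14 relations (7 genes, 10 ethanol and 8 water mice), none had an adjusted p below 0.05, and the lowest adjusted p was 0.446 for Pearson's r and 0.735 for Spearman's rho. Rbm33 in ethanol mice had the lowest p (r = 0.627, permutation p = 0.0545, rho = 0.60, permutation p = 0.0742). Its r was 0.559 without the 2 mice farthest from the median homogenate level, which were chosen anew for each gene and drinking group. In water mice the sign of Rbm33 was the opposite (r = -0.626, exact permutation p = 0.101, rho = -0.619, exact permutation p = 0.115, and r = -0.477 without the 2 farthest). Fam53b in water mice had r = 0.677 (exact permutation p = 0.0673, rho = 0.548, exact permutation p = 0.171), which was 0.0498 without the 2 farthest mice. Leaving out the 2 farthest mice of each gene raised r in water mice from 0.589 to 0.903 for Pepd (exact permutation p = 0.127 with all 8 mice, rho = 0.429, exact permutation p = 0.299) and from 0.375 to 0.866 for Dusp3 (exact permutation p = 0.345, rho = 0.262, exact permutation p = 0.536). With TMM-scaled levels the lowest p was instead that of Nuak1 in water mice (r = -0.813, exact permutation p = 0.0100, adjusted p = 0.141, rho = -0.786, exact permutation p = 0.0279, adjusted p = 0.217, r = -0.716 without the 2 farthest), against r = -0.364 with CPM, so these values move with the scaling.

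A week after LPS, none of the 7 passed either, when 0.016% of 12469 genes did (2 genes, and 721 by unadjusted p). Dusp3 was at 102, 152, 161, 163.5 and 181 CPM in LPS microglia and at 165, 177, 179, 186 and 188 CPM in saline microglia. Of the LPS libraries mouse 44 alone lay above the lowest saline library, and the log2 fold change was -0.23 (SE 0.13, edgeR adjusted p = 0.943). It was -0.12 without LPS mouse 33, the lowest library.

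Fam53b was at 103, 119, 131, 141 and 141.5 CPM with LPS and at 93.3, 113, 119, 122 and 139 CPM with saline (log2 fold change 0.12, SE 0.13). Pepd was at 56.7, 59.5, 64.7, 67.4 and 68.3 CPM with LPS and at 64.0, 68.2, 73.0, 73.0 and 76.8 CPM with saline (-0.16, SE 0.13). Nuak1 spanned 393 to 495 CPM with LPS and 362 to 459 CPM with saline (0.09, SE 0.10), and Rbm33 154 to 207 CPM and 162 to 194 CPM (0.02, SE 0.11). In none of these 4 genes did the groups separate.

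The scarcest genes varied most in this small cohort. Rtel1 was at 6.93, 9.11, 9.79, 9.82 and 11.7 CPM with LPS and at 0.048, 3.19, 7.52, 10.6 and 11.6 CPM with saline, the lowest being 1 count in mouse 38. Its log2 fold change of 0.53 (SE 0.72, 95% interval -0.99 to 2.05) was 0.21 without saline mouse 38 and 0.85 without saline mouse 48. Rccd1 was at 3.96, 5.03, 7.17, 9.36 and 16.3 CPM with LPS and at 3.44, 5.01, 7.35, 7.66 and 16.8 CPM with saline, the top value again in saline mouse 38. Its log2 fold change of 0.05 (SE 0.53, 95% interval -1.07 to 1.16) was 0.53 without that mouse and -0.35 without LPS mouse 51. Between saline libraries the level varied by 74.5% of its mean for Rtel1 and by 64.3% for Rccd1, and no change of either gene was detectable beyond that spread.

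With the 6 groups ordered by mean, neighbouring microglial groups lay within the larger SD of the pair, with the following exceptions. Nuak1 in ethanol microglia (488 ± 40.5 CPM, SD, n = 10) stood above water microglia. Pepd in saline microglia (71.0 ± 4.94 CPM, SD, n = 5) stood above LPS microglia (63.3 ± 5.03 CPM, SD, n = 5). Dusp3 in saline (179 ± 8.84 CPM, SD, n = 5) and LPS microglia (152 ± 29.7 CPM, SD, n = 5) was within only by the LPS spread. Groups not next to each other were not compared in this way, such as Pepd in ethanol (72.5 ± 8.67 CPM, SD, n = 10) and water microglia (62.6 ± 7.99 CPM, SD, n = 8). The LPS and saline cohort shared no mice with the drinking cohort, so levels between the cohorts are a description only.

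Counts of Rccd1 carry an overlap. In the GENCODE annotation of this build Rccd1 (chr7:80293229-80324454, minus strand) shares 911 exon bases, 11.5% of its own, with Prc1 on the opposite strand. Whether counting used strand is not given in the sources used here, so how reads in the shared bases were assigned is not known. Prc1, a spindle protein of dividing cells, was at 0.756 ± 0.394 CPM in ethanol homogenate (SD, n = 10) and 0.801 ± 0.545 CPM in water homogenate (SD, n = 9), against 11.6 and 8.21 CPM of Rccd1. In water microglia 19 Prc1 reached 41.6 CPM, where Rccd1 was at 5.35 CPM, the second lowest of its group. Dusp3 (chr11:101971143-101987013, minus strand) shares 604 exon bases (12.9%) with the antisense gene Gm20659, which was not counted. Fam53b (chr7:132712082-132813886, minus strand) lies within a long model of Fgfr2 and shares 0 exon bases with it.

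Around each member, lists of 131 pathway partners were read in the same fits, and none of the partners passed with a treatment. In homogenate 0 of 129 partners passed in either direction with ethanol, in microglia 0 of 125 with ethanol and 0 of 122 with LPS, where 0.808%, 0.00756% and 0.016% of all genes passed. Counts of 0 are near that background. Among AMPK-related kinases and their LKB1 complex, the partners of Nuak1, the homogenate median was -0.07 over 19 genes on the log2 scale, beside -0.0083 over all genes. Mark1, which phosphorylates microtubule-associated proteins, had the smallest p there (-0.19, SE 0.05, edgeR adjusted p = 0.0643). The 10 MAP kinase phosphatases of the DUSP family had the lowest median, -0.21, with Dusp7, a cytoplasmic member, at -0.21 (SE 0.05, edgeR adjusted p = 0.0531). The other atypical phosphatases and MAP kinases around Dusp3 had a median of 0.06 over 15 genes, with Mapk3, which encodes ERK1, at 0.32 (SE 0.12, edgeR adjusted p = 0.177).

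Telomere and related helicase genes around Rtel1 had a homogenate median of 0.07 over 19 genes, with Terf1, a telomere-binding protein, at 0.43 (SE 0.12, edgeR adjusted p = 0.0803). The m6A and RNA export genes around Rbm33 had a median of 0.0093 over 18 genes, and Alkbh5, whose product RBM33 binds, was at -0.15 (SE 0.05, edgeR adjusted p = 0.118). RCC1-repeat genes around Rccd1 had a median of 0.05 over 13 genes, with Herc1, a large ubiquitin ligase, at 0.19 (SE 0.05, edgeR adjusted p = 0.0600). Proline and dipeptide genes around Pepd had -0.07 over 18 genes and Wnt genes around Fam53b -0.03 over 17 genes. Pycrl, a proline-making reductase (-0.17, SE 0.07), and Rnf43, which removes Wnt receptors (-0.59, SE 0.26), had the smallest p in those lists and did not pass.

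In ethanol microglia the medians of the 8 lists lay between -0.11 (Wnt genes) and 0.03 (RCC1-repeat genes), beside -0.01 over all genes. The gene with the smallest p in any list was P4ha1, a subunit of the enzyme that hydroxylates proline in collagen (-0.30, SE 0.09, edgeR adjusted p = 0.329). With LPS the smallest p values belonged to Dusp2, a nuclear MAP kinase phosphatase of immune cells (0.64, SE 0.17), and Srsf3, a splicing and export factor (-0.45, SE 0.12), both with an edgeR adjusted p of 0.362.

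Between preparations 61 of 129 partners were higher and 51 lower in water microglia than in water homogenate. Of all genes 84.4% passed there, 35.3% higher and 49.1% lower, so passing says little about the partners or the lists below. Nuak2, the closest relative of Nuak1, was at 66.9 CPM in water microglia and 1.24 CPM in water homogenate (log2 fold change 5.86, SE 0.26), while the neuronal kinase Brsk1 was at 7.35 and 727 CPM (-6.56, SE 0.30). Of the m6A and RNA export genes 13 of 18 were higher in microglia, as Rbm33 was, among them the export receptor Nxf1 (1.59, SE 0.06), and the demethylase Fto was lower (-1.76, SE 0.07). Of the MAP kinase phosphatases 7 of 10 were higher, among them Dusp1 at 1665 CPM against 36.9 CPM (5.57, SE 0.18). The MAP kinase gene Mapk9 was lower (-2.40, SE 0.10), as Dusp3 was. Cndp2, a dipeptidase, was higher in microglia with Pepd (2.95, SE 0.07), and Prepl, a peptidase relative, was lower (-3.48, SE 0.10). Lrp5, a Wnt co-receptor (3.63, SE 0.15), was higher and Apc, which restrains beta-catenin, was lower (-1.50, SE 0.09). The helicase Wrn (1.74, SE 0.11) and the telomere protein gene Ctc1 (2.02, SE 0.07) were higher in microglia, where Rtel1 was lower.

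Once the group means were taken off, the 7 genes moved together only loosely over the 19 homogenates. All 3 pairs among the genes higher with ethanol had a positive r (0.17 to 0.44), the 6 pairs among the lower genes had a median of 0.01, with Fam53b and Dusp3 at 0.58, and the 12 opposite pairs had a median of -0.20, 2 of them positive. In microglia the highest r of a pair was that of Nuak1 and Pepd, 0.81. These correlations share libraries and depth and carry no test. The genes most like each member over the homogenates were Dixdc1 (r = 0.86) and Rab31 (0.81) for Fam53b, Dfna5 (0.84) and Car8 (0.84) for Nuak1, and Atxn2l (0.85) and Ints10 (0.85) for Rbm33. They were Ocel1 (0.80) for Rtel1, Camk1 (0.77) and Gpaa1 (0.75) for Rccd1, Slc6a8 (0.85) and Fam21 (0.82) for Dusp3, and Sgol2 (0.84) and Tnfrsf22 (0.80) for Pepd. They were picked for the highest r over 19 libraries among the genes tested, predicted genes left out, so values of this size belong to the choice.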

How the data were processed

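Whole-gene read counts were deposited by the authors for 47 of 48 samples, with no normalization. Per the labels' protocols, RNA was poly(A)-selected and sequenced in pairs from directional libraries. The submitters' processing notes name bcl2fastq 2.15.0.4, FastQC, STAR, HTSeq, DESeq2 and mm10. The annotation and the strand setting of the counting were not given in the sources used here. One water microglial sample is labelled as removed after mapping and was not analysed here. Rows that name no gene stayed out of library sizes, and reads outside genes took a mean of 22.5% to 32.3% of uniquely aligned reads by group.

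Each comparison was fitted on the whole table with edgeR 4.0.16 (TMM, filterByExpr, quasi-likelihood F-test, Benjamini-Hochberg at 0.05, R 4.3.3), without a mouse block. Alternatives used DESeq2 1.42.0, limma voom 3.58.1, other filters, covariates, runs and left-out libraries. The fits were tested on simulated data with 200 changed genes. Relations used log2(CPM + 0.5) with permutation tests, exact below 10 mice and 100000 draws otherwise. Exon lengths, overlaps and the promoters (RefSeq, 7 of 7 matched) are on GRCm38. The protocol ties homogenate and microglia of a number to 1 mouse, and over 18 such pairs the median correlation of deviations from group means was 0.04 (-0.03 to 0.13). No 2 libraries of the same group matched within sampling noise, and pairs across groups were not examined. Intervals cover the spread between libraries only.

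The members and lists were chosen with earlier results of these data known. Named beside the members were, from each list, some of up to 4 genes past the threshold by smallest p, otherwise the 1 with the smallest p, and the 2 most alike genes without predicted ones. Some genes that this rule selects are not reported here. Run membership was inferred from sheet numbers, not from a label.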

Additional observations from a re-analysis of the deposited data

How the results depend on the processing

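The homogenate contrast chose the genes, so passing it again is no sign of stability. All 7 genes had an edgeR, DESeq2 or voom adjusted p below 0.05 with each library left out, under RLE, DESeq2, voom and both filters, with inferred run as a covariate and without water mice 19 and 24. They did not with the outside-gene share as a covariate (0 of 7), within run 1 (0) or within run 2 (0), where fewer samples entered, nor without the 3 homogenates richest in oligodendrocyte markers (3 of 7). For that last fit the share of all genes is not reported here. The cause was not tested. Over all genes the homogenate count was 123, against 534 by DESeq2, 62 without a filter and 39 to 275 with 1 library left out. In microglia DESeq2 called 49 genes and voom 8 where edgeR called 1, and for LPS DESeq2 called 48 and an unfiltered fit 17 where edgeR called 2, no member among them.

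In ethanol microglia no alternative brought a member past the threshold. Near 0 the sign varied: within run 1 Fam53b was 0.0054 and Rbm33 0.0129, and within run 2 Dusp3 was -0.0248. The water microglia of run 2 were those of mice 21, 24 and 25 alone. Rtel1 was -0.35 within run 1 and 0.32 within run 2, far from its value of -0.0021 over all libraries. Rtel1 was also 0.0026 under RLE, 0.0043 without a filter, 0.0052 with a filter of 1 CPM and 0.0019 with run as a covariate. With 1 library left out Fam53b ranged from -0.0409 to 0.0349, Rtel1 from -0.0886 to 0.0714 and Dusp3 from -0.0086 to 0.0515. For LPS, Rbm33 ranged from -0.0214 to 0.0767 and Rccd1 from -0.35 to 0.53, and Rccd1 was -0.0146 with the outside-gene share as a covariate. With TMM-scaled levels the same-mouse r of Rtel1 was 0.0235 in ethanol and 0.0041 in water mice, and in water mice r went from -0.364 to -0.813 for Nuak1, from 0.677 to 0.330 for Fam53b and from -0.626 to -0.287 for Rbm33, with no adjusted p below 0.05.

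With the mouse as a replicate block, 6 of 7 genes passed between preparations in water and in ethanol mice, and the block changed no call. In ethanol mice Rccd1 also passed by DESeq2 (adjusted p = 0.00107) and voom (adjusted p = 0.0490). The fewest counts in a library were 1 for Rtel1 and 81 for Rccd1, and their spread between saline libraries (74.5% and 64.3% of the mean) limits what those fits can show. Microglia give no test of the other cell types of the homogenate.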
